A study of Mus musculus with 3 samples.

Results

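The Gimap genes encode GTPases of the immunity-associated protein family, and their transcripts were followed across the lymphocytes and macrophages of pancreatic islets from NOD mice, a strain that develops autoimmune diabetes. The 8 members are Gimap1, Gimap3, Gimap4, Gimap5, Gimap6, Gimap7, Gimap8 and Gimap9. They were chosen as a gene family from the 32285 genes of the count tables, with earlier results of these data known. All 8 passed the filter on low counts. Live CD45+ islet cells had been sorted and sequenced as single cells in 3 libraries, under 1 condition and with no treatment. The animals were wild-type female NOD mice of 15 to 16 weeks, and each library held islets pooled from 2 to 3 mice, so values of single mice cannot be separated. The libraries came from more than one experiment, and the assignment of libraries to experiments was not given in the sources used here. The labels carry a code that sets replicate 2 apart from replicates 1 and 3, and its meaning was not given either.

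Cells were placed in classes by counts of unique molecular identifiers (UMIs), each of which marks 1 captured transcript. Cells with at least 1000 UMIs and under 10% mitochondrial UMIs were kept. CD8 T cells had a Cd3e UMI, at least 2 UMIs of Cd8a and Cd8b1 together and none of Cd4. CD4 T cells had UMIs of Cd3e and Cd4 and none of Cd8a, Cd8b1 or Foxp3, and regulatory T cells (Treg) had UMIs of Cd3e and Foxp3. B cells had at least 2 Cd79a UMIs and no Cd3e, and macrophages had at least 5 UMIs of C1qa and C1qb, no Cd3e and at most 1 of Cd79a. T cells with at least 1 UMI of Pdcd1, which encodes the inhibitory receptor PD1, are called PD1+ and the others PD1-. This is a split on RNA, and a PD1- cell may carry Pdcd1 transcripts that were not captured.

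GIMAP proteins share a GTP-binding domain named AIG1 and are found mainly in lymphocytes, where they sit on membranes such as those of the endoplasmic reticulum, mitochondria, lysosomes and lipid droplets. The family is known for keeping resting lymphocytes alive. Loss of Gimap5 causes the T-cell lymphopenia of the BB rat, which is linked to autoimmune diabetes in that animal, and loss of Gimap1 or Gimap5 in mice depletes peripheral lymphocytes. GIMAP4 has been tied to the speed of T-cell death and GIMAP6 to autophagy through the protein GABARAPL2. GIMAP7 is known as a GTPase that can stimulate the activity of other family members.

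The 8 genes lie in 1 cluster on chromosome 6, at chr6:48647234-48770851 of GRCm38 (GENCODE M21), a span of 124 kb. Gimap8, Gimap9, Gimap4, Gimap7, Gimap1 and Gimap5 lie on the plus strand in this order along the chromosome, with Gimap6 between Gimap4 and Gimap7 and Gimap3 after Gimap5, both on the minus strand. The annotation also places a protein-coding readthrough gene, Gm28053, over Gimap7, Gimap1 and Gimap5, and it was not among the genes of the count tables. Of the possible 90-base stretches of their transcripts, Gimap5 and Gimap3 share 51, which is 2.05% of those of Gimap3 and a smaller share of those of Gimap5. None of these lies in the last 500 bases, where reads of this assay are expected to fall, and no other pair of members shares one.

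Promoter sequence is shown for Gimap7, the member that rose in PD1+ CD8 T cells, for Gimap9, the member with the largest fall, and for Gimap4 and Gimap1, which hold the same RUNX core as Gimap7. Each run covers the bases from 250 to 31 before the transcription start, on the plus strand of GRCm38.p6 (RefSeq). The windows are chr6:48718371-48718590 for Gimap7, chr6:48738797-48739016 for Gimap1, chr6:48684328-48684547 for Gimap4 and chr6:48675885-48676104 for Gimap9. Capitals mark the RUNX core TGTGGT and the KLF core CCACCC, searched on both strands, so that both can appear as their reverse complement.
Gimap7: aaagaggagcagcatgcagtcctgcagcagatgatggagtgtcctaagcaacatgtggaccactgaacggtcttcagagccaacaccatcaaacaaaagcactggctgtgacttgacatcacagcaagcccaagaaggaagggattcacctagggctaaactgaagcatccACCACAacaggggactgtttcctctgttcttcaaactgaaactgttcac
Gimap1: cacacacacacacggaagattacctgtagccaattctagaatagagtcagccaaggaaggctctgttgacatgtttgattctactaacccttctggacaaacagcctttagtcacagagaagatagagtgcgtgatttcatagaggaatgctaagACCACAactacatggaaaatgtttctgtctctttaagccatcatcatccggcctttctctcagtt
Gimap4: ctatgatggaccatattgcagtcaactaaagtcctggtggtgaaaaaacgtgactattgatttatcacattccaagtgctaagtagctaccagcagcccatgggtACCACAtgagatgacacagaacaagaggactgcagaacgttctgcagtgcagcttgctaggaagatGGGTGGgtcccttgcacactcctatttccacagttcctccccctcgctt
Gimap9: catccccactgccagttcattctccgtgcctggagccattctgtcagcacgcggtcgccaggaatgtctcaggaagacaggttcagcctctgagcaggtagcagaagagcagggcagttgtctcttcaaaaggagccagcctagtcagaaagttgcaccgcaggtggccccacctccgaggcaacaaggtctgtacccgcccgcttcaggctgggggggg
RUNX factors and the KLF family are transcription factors active in T cells. The RUNX core was in the windows of 3 of the 8 members, Gimap1, Gimap4 and Gimap7, and in 12.7% of all 32851 promoter windows of this length. The KLF core was in those of 3 members, Gimap3, Gimap4 and Gimap5, against 25% of all windows. The ETS core CCGGAA and the TCF/LEF core CTTTGA were in no member window, against 9.47% and 12.6% of all windows. TTCNNNGAA, a STAT motif, was in the windows of Gimap6 and Gimap8 (6.27% of all), and the FOXO core TGTTTAC in that of Gimap3 (2.81% of all). These matches describe letters in a window and were not tested as binding sites.

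The libraries held 5844, 9537 and 11566 cells and 33851381, 74775394 and 80806452 UMIs. Of 26142 cells kept, 15673 fell in the classes, with 3199 CD8 T, 5858 CD4 T, 1612 Treg, 4936 B and 68 macrophage cells, and 59 cells that met 2 rules were left out. Pairs of libraries shared 12, 18 and 29 cell barcodes, at most 0.308% of the smaller library. The other kept cells met no class rule, for lack of the required UMIs or for holding excluded ones, and their types were not assigned. The classes held 62.2%, 61.4% and 58.8% of all Gimap UMIs in replicates 1, 2 and 3. Markers that the rules did not use fitted the class names. Summed T-cell markers ranged from 3378 to 4795 CPM in the T classes, where CPM are UMIs of a gene scaled to the same total of UMIs in every sum, and from 0 to 168 CPM in B cells and macrophages. B-cell markers ranged from 2901 to 3343 CPM in B cells and reached 728 CPM in Treg, so that T-cell droplets held some B-cell transcripts. Replicate 1 stood apart. Its median mitochondrial share was 1.74 to 2.06% per class, against 3.47 to 4.47% in the lymphocyte classes of replicates 2 and 3, and its summed Gimap level was the lowest of the 3 libraries in all 4 lymphocyte classes. Differences between classes were therefore fitted within libraries.

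Gimap transcripts were abundant in T cells, lower in B cells and close to absent in macrophages. In CD4 T cells the 8 members together made up 1597, 2113 and 2276 CPM in replicates 1, 2 and 3. The sum was 1494, 1756 and 1986 CPM in Treg and 1213, 1767 and 1998 CPM in CD8 T cells. The ranges of the 3 T classes overlapped, although within each library CD4 T cells lay above Treg and CD8 T cells. B cells held 669, 815 and 793 CPM, below every T-cell value, and macrophages held 26.4, 39.6 and 28.8 CPM, below every B-cell value. All values in CPM are totals per class and library, so that fewer transcripts per cell and fewer expressing cells cannot be told apart from them.

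**Figure D1:**
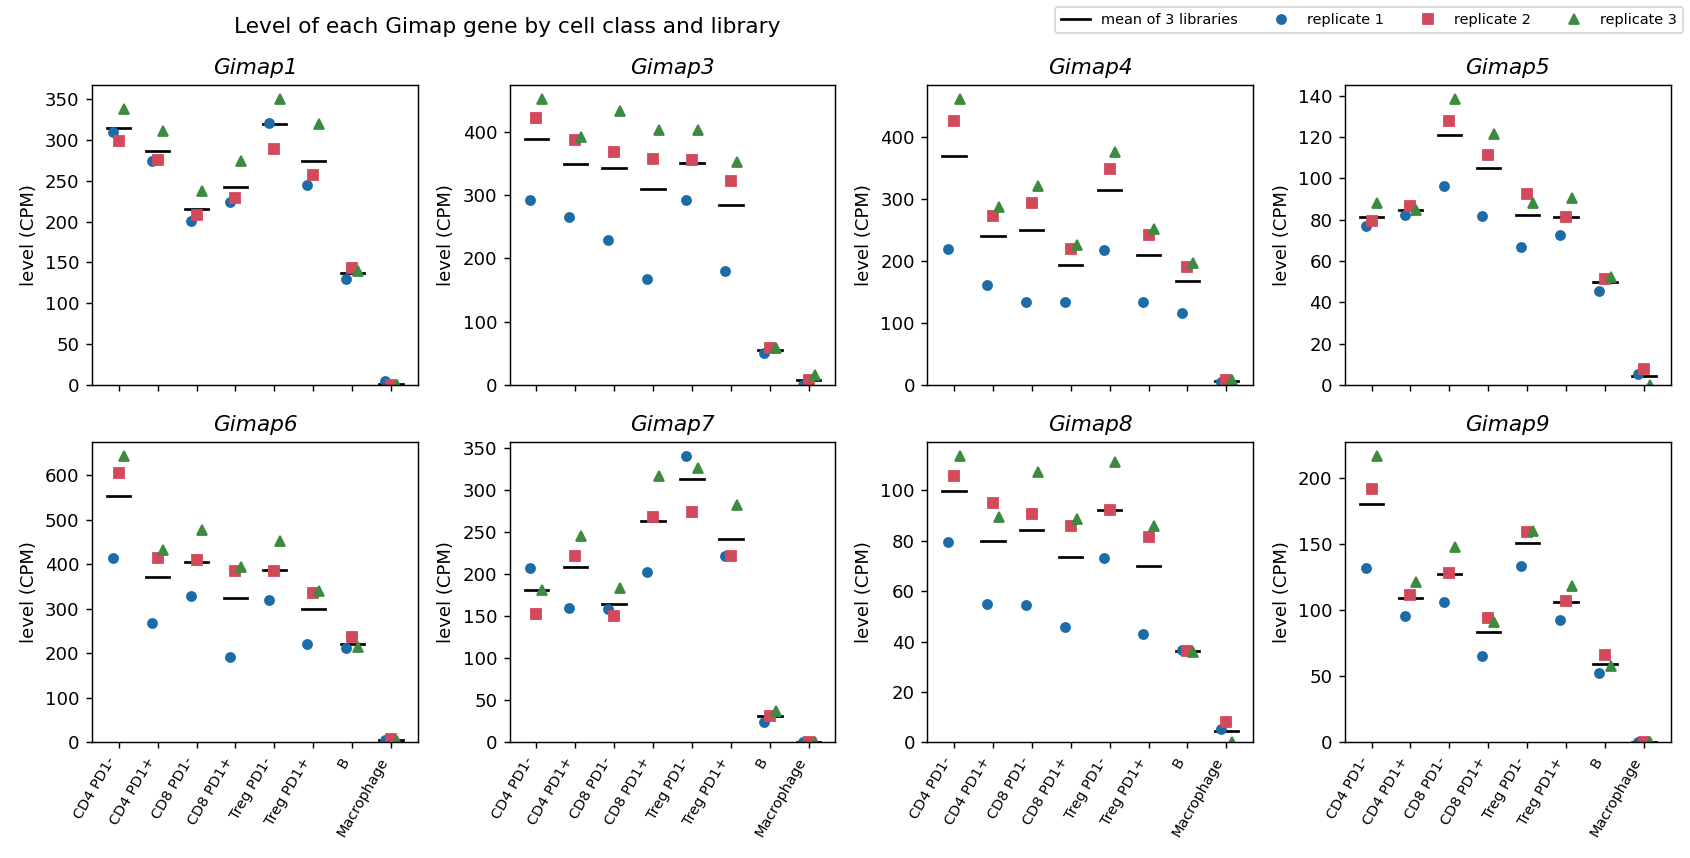
Level of each Gimap gene in CPM (linear axis from 0) in the PD1- and PD1+ T classes, B cells and macrophages. Points are the 3 libraries and bars their means. Gimap7 lies highest in PD1- Treg with a mean of 313 CPM, Gimap5 in PD1- CD8 T cells with a mean of 121 CPM, and the macrophage values lie near 0 for all 8 genes.

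The members differed in which T class held the highest level. Gimap4, Gimap6, Gimap9, Gimap8 and Gimap3 had their highest mean in CD4 T cells. In each case the range of library values overlapped with that of the next class, but within libraries CD4 T cells were higher in 3 of 3. Gimap6 was at 361, 528 and 556 CPM in CD4 T cells, 262, 401 and 447 CPM in CD8 T cells and 271, 351 and 378 CPM in Treg. Gimap4, at 199, 365 and 391 CPM in CD4 T cells, was lower in replicate 1 than in the others by more than the classes differed. Gimap1 was nearly level between CD4 T cells (304 ± 19.7 CPM, SD, n = 3) and Treg (294 ± 32.6 CPM), and lower in CD8 T cells at 226 ± 21.6 CPM, with no overlap.

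Gimap5 and Gimap7 had other orders. Gimap5, the lymphocyte survival factor of the BB rat, was at 89.4, 122 and 132 CPM in CD8 T cells. It was at 79.0, 82.3 and 86.8 CPM in CD4 T cells, below every CD8 value. Treg did not differ from CD4 T cells beyond the spread, at 69.7, 84.7 and 89.7 CPM. Gimap7 was at 282, 238 and 297 CPM in Treg, above all libraries of CD8 T cells (180, 189 and 232 CPM) and of CD4 T cells (190, 180 and 208 CPM). CD8 and CD4 T cells overlapped for Gimap7.

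The classes also differed in how their Gimap transcripts were divided among the members. Gimap6 took the largest share of Gimap UMIs in all 4 lymphocyte classes, from 19.1% in Treg to 29.3% in B cells (means of 3 libraries). Gimap7 made up 15.8 ± 2.78% of Gimap UMIs in Treg, 12.4 ± 2.20% in CD8 T cells and 9.85 ± 1.80% in CD4 T cells (SD, n = 3), and 4.09 ± 0.522% in B cells. Gimap3 made up 17.8 to 19.4% in the T classes and 7.41 ± 0.207% in B cells. These shares are of captured 3′ ends and depend on how well each transcript was captured.

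The next comparison asked how far each member marks T cells against B cells. All 8 members were higher in T cells, taken as the mean of the 3 T classes, and 29.4% of all 12090 genes tested were called higher in this comparison. Of the calls over all genes, 51.9% were higher in T cells, and 63.3% when scaled by total UMIs alone. Gimap7 was at 24.7, 31.8 and 37.2 CPM in B cells, and 6.49-fold higher in T cells (log2 fold change 2.70, SE 0.12, adjusted p = 6.1e-12, edgeR quasi-likelihood test with Benjamini-Hochberg adjustment). Gimap3, at 50.9, 58.6 and 59.0 CPM in B cells, was 5.38-fold higher in T cells (log2 fold change 2.43, SE 0.14, adjusted p = 4.7e-11). The other 6 members differed less, with log2 fold changes from 0.51 for Gimap4 to 1.06 for Gimap8, although their adjusted p was at most 8.3e-05.

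Transcripts of T cells were also found in B-cell droplets, and their level sets what can be read from the lower B-cell values. As a percentage of the T-cell level in the same library, 5 T-cell markers that B cells should lack or hold little of stood at 2.74% (Cd3g) to 5.52% (Lat) in B cells, and Lck, a kinase gene, at 15.2%. Gimap7 stood at 14.1 ± 2.36% and Gimap3 at 17.2 ± 3.53% (SD, n = 3), near Lck and above the other markers in every library. Gimap1, Gimap4, Gimap5, Gimap6, Gimap8 and Gimap9 stood at 45.5% to 64.2%. The part of stray T-cell RNA in the B-cell values of Gimap7 and Gimap3 was not tested further.

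**Figure D2:**
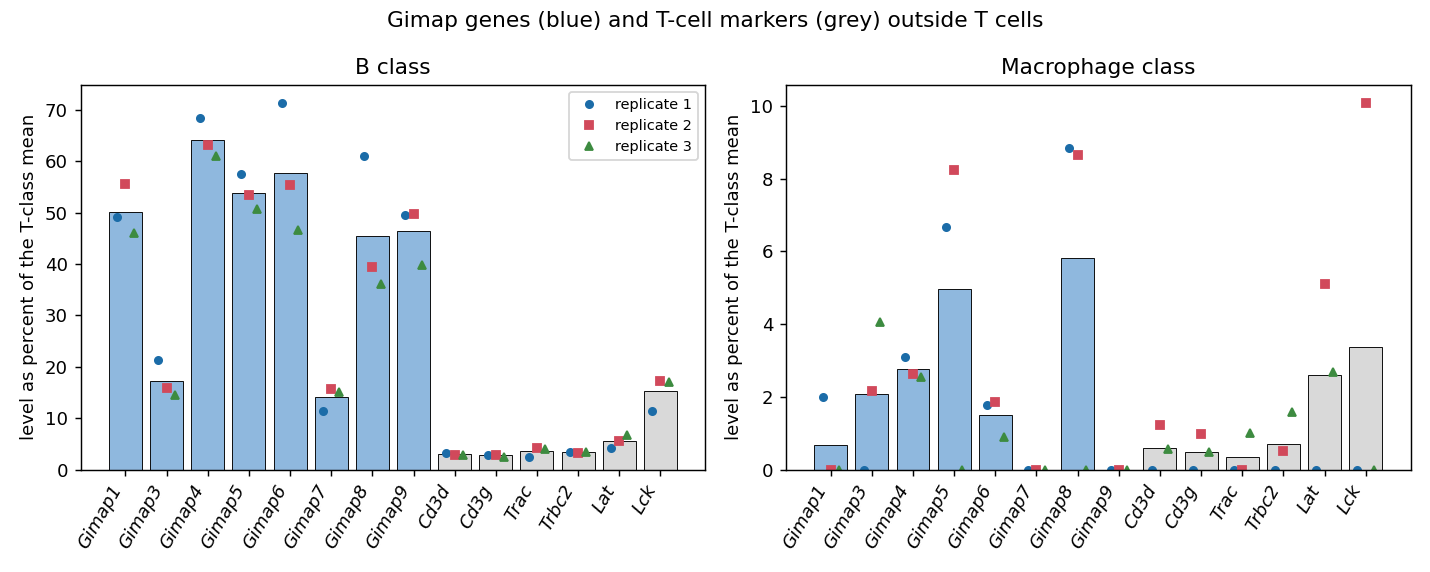
Level of the 8 Gimap genes (blue) and of 6 T-cell markers (grey) in B cells and macrophages, as a percentage of the mean level of the 3 T classes in the same library (linear axes from 0, with different ranges). Bars are means and points the 3 libraries. In B cells 6 members stand between 45.5% and 64.2% and Gimap7 and Gimap3 at 14.1% and 17.2%, and in macrophages the means of all members are at 5.83% or less.

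In macrophages only 17 Gimap UMIs were counted among 558022 in all, from 68 cells. No UMI of Gimap7 or Gimap9 was found. Against a floor of 3 UMIs over the class, their pooled T-cell levels of 213 and 141 CPM were at least 39.7-fold and 26.3-fold higher. Gimap1 gave 1 UMI and Gimap6 gave 3, for ratios of 158 (95% exact counting interval 28.3 to 6223) and 83.5 (28.6 to 405) in favour of T cells. Gimap4 gave 4 UMIs and a ratio of 42.9 (16.8 to 158). These intervals cover counting error only. All 8 members were called higher in T cells (21% of all genes were) and in B cells (20.9% of all genes), with adjusted p of at most 3.5e-05 and 0.0022 (edgeR quasi-likelihood test, Benjamini-Hochberg). The median of all genes lay 0.53 and 0.56 above 0 on the log2 scale in these comparisons. DESeq2, whose scaling differs, called 44.9% and 40.9% of its passing genes higher in T cells and B cells, where edgeR called 58.1% and 57.4% higher. T-cell markers stood at 0.34% to 3.36% of the T-cell level in macrophages and Gimap members at 0 to 5.83% (means of 3 libraries). In replicate 1 all 6 T-cell markers were at 0. There Gimap8, Gimap5, Gimap4, Gimap1 and Gimap6 stood at 8.85%, 6.66%, 3.11%, 2.00% and 1.77%, and Gimap3, Gimap7 and Gimap9 at 0. Each of the values above 0 was 1 UMI among 31 cells, or 20% of the Gimap UMIs there. Their order therefore follows from the T-cell levels they were divided by. The part of stray RNA in the few Gimap UMIs was not tested. With the study's own cell limits 4 members were called between B cells and macrophages, where only the 18 macrophages of replicate 1 made a sum of 10 or more cells.

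The T classes were also compared among PD1- cells, that is, those without a captured Pdcd1 UMI. The classes may still differ in Pdcd1 transcripts that were not captured. Among these cells, CD8 T cells had less of 4 members and more of Gimap5 than CD4 T cells. Gimap5 was at 96.5, 128 and 138 CPM in PD1- CD8 T cells and at 77.1, 79.3 and 88.2 CPM in PD1- CD4 T cells. The groups did not overlap. Gimap5 was 1.60-fold higher in CD8 T cells (log2 fold change 0.68, SE 0.09, adjusted p = 5.6e-06, edgeR quasi-likelihood test), the direction of all 3 libraries, and it was called under all 13 alternatives tried. Among all 10759 genes tested, 7.31% were called higher in CD8 T cells and 7.22% lower. Higher genes made up 50.3% of these calls, and 29.7% when scaled by total UMIs alone. The 4 lower members were Gimap4 (log2 fold change -0.46, SE 0.09), Gimap1 (-0.44, SE 0.07), Gimap9 (-0.39, SE 0.09) and Gimap6 (-0.34, SE 0.09), with adjusted p between 4.8e-05 and 0.0086, each lower in 3 of 3 libraries. Gimap3, Gimap7 and Gimap8 did not pass, with log2 fold changes of -0.09, -0.03 and -0.14. In place of 5 members, 3 were called without replicate 2 and 3 without replicate 3. Across all genes 1564 were called, and 375 to 1928 under the 13 alternatives.

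PD1- Treg had more Gimap7 than PD1- CD4 T cells. It was at 340, 273 and 326 CPM in Treg and 208, 153 and 182 CPM in CD4 T cells. The lowest Treg library lay above the highest CD4 library, and the difference was 1.59-fold (log2 fold change 0.67, SE 0.13, adjusted p = 0.0025, edgeR quasi-likelihood test). In this comparison 5.63% of all genes were called higher and 5.18% lower. Higher genes made up 52.1% of these calls, and 76.6% when scaled by total UMIs alone. Gimap6 was lower in Treg by 0.64 on the log2 scale (SE 0.09, adjusted p = 1.8e-05), and Gimap9 and Gimap4 were lower by 0.38 and 0.34. The other 4 members did not pass. Without replicate 3 the Gimap7 difference kept its size (0.65) with an adjusted p of 0.064, and 1 member in place of 4 was called. Without replicate 2 there were 2. For all genes the number called was 1163, and 193 to 1653 under the 13 alternatives.

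**Figure D3:**
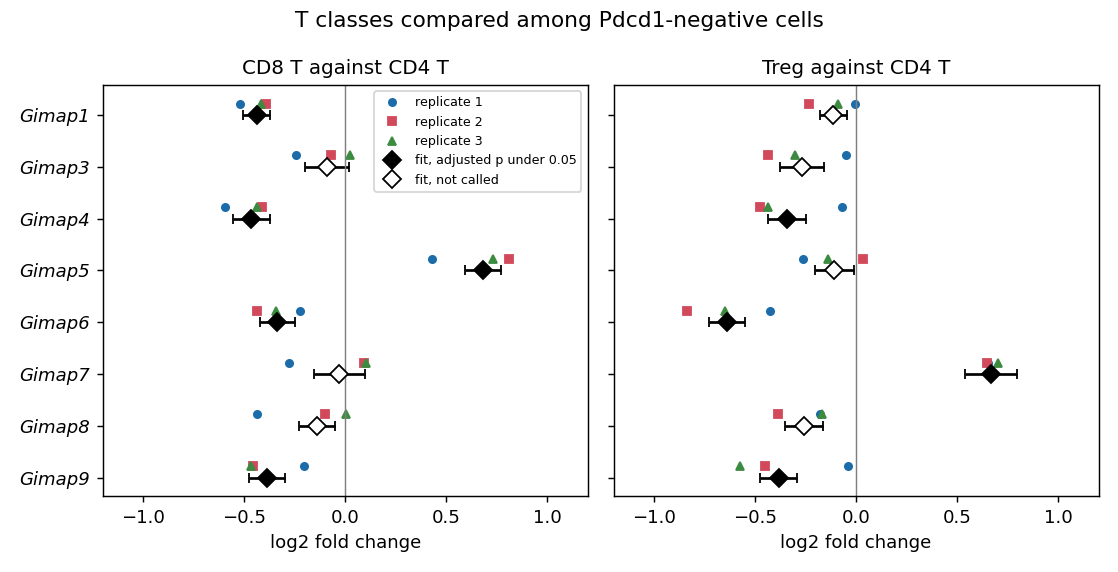
Log2 fold change (linear axis) of each Gimap gene among PD1- cells, in CD8 T cells against CD4 T cells (left) and in Treg against CD4 T cells (right). Diamonds are the fitted values with their SE, filled where the adjusted p was under 0.05, and small points are the 3 libraries. Gimap5 stands apart on the left at 0.68 and Gimap7 on the right at 0.67, while the other called members lie below 0.

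The main comparison set PD1+ against PD1- cells within each T class. In CD8 T cells 6 members fell and 1, Gimap7, rose, against a background of 7.57% of all genes called lower and 6.13% called higher. Gimap9 was at 65.1, 94.5 and 90.9 CPM in PD1+ and 106, 128 and 148 CPM in PD1- CD8 T cells. The groups did not overlap, and Gimap9 was 1.72-fold lower (log2 fold change -0.78, SE 0.09, adjusted p = 3.4e-06, edgeR quasi-likelihood test). Gimap6 and Gimap4 were lower by 0.53 and 0.51 on the log2 scale, with adjusted p of 0.00018 and 0.00068, and lower in 3 of 3 libraries. Their library values overlapped between the groups, with replicate 1 the lowest in both. Gimap5 and Gimap8 were each lower by 0.38 and Gimap3 by 0.35, with adjusted p of 0.0055, 0.0076 and 0.039. Gimap1, needed for the survival of mature lymphocytes, did not pass, with a log2 fold change of -0.00 (SE 0.07, adjusted p = 0.99). Its level in CPM, without the trimmed-mean scaling, was 224, 229 and 274 in PD1+ and 200, 208 and 238 in PD1- CD8 T cells.

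Gimap7 moved the other way in CD8 T cells. It was at 203, 268 and 317 CPM in PD1+ cells and at 159, 150 and 184 CPM in PD1- cells. Every PD1+ library lay above every PD1- library. The rise was 1.42-fold (log2 fold change 0.51, SE 0.13, adjusted p = 0.014, edgeR quasi-likelihood test). The summed lists of Treg and natural killer cell markers were also higher in PD1+ CD8 T cells, although Ctla4 is on the activation and checkpoint list as well. The 4 Treg markers summed to 411 to 560 CPM in PD1+ and 146 to 373 CPM in PD1- CD8 T cells, with Foxp3 at 0 by the class rule and Ikzf2 and Ctla4 making up nearly all of the sum. The 3 natural killer cell markers summed to 197 to 216 CPM against 127 to 145 CPM, nearly all of it Klrd1, with Ncr1 and Klrb1c under 0.5 CPM in every library. Their part in the rise of Gimap7 was not tested. Gimap7 took 16.7 ± 1.45% of the Gimap UMIs in PD1+ CD8 T cells against 9.84 ± 1.99% in PD1- cells (SD, n = 3). Its log2 fold change stayed between 0.45 and 0.85 under the 13 alternatives, and its adjusted p rose to 0.14 without replicate 2 and 0.21 without replicate 3. Over all members, 2 were called without replicate 2 and 2 without replicate 3, both times Gimap9 and Gimap6. The number of all genes called in this comparison was 1473, and 189 to 2133 under the 13 alternatives.

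PD1+ cells were deeper than PD1- cells, with a median of 5865, 8657 and 7037 UMIs per CD8 T cell against 4896, 7309 and 6240. The same held for CD4 T cells (4720, 7331 and 6460 against 4519, 6134 and 5228) and Treg (5375, 11508 and 10964 against 4232, 7518 and 7276). Scaling by total UMIs alone, in place of the trimmed mean of M values, moved the median of all genes by 0.18 towards PD1+ and left 4 members called, with Gimap5, Gimap8 and Gimap3 no longer past the threshold. Genes higher in PD1+ cells then made up 79.9% of the calls over all genes, against 44.7% with the trimmed mean. With every cell thinned to 2000 UMIs and classified again, 2 members, Gimap7 and Gimap6, were called in CD8 T cells. This left 222, 229 and 375 CD8 T cells in replicates 1, 2 and 3, in place of 574, 1189 and 1436. It also left 4684 genes tested in place of 10759, so that depth and loss of cells cannot be told apart here. With T cells that held a Cd79a or C1q UMI left out, 7 members were called in CD8 T cells, 6 in CD4 T cells and 4 in Treg.

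In CD4 T cells 5 members fell with PD1, where 8% of all genes were called lower and 7.51% higher. Higher genes made up 48.4% of the calls over all genes, and 81.6% when scaled by total UMIs alone. Gimap9 was at 95.7, 112 and 122 CPM in PD1+ and 132, 192 and 216 CPM in PD1- CD4 T cells. The groups did not overlap, and Gimap9 was 1.85-fold lower (log2 fold change -0.89, SE 0.09, adjusted p = 1.8e-07, edgeR quasi-likelihood test). Gimap4 fell by 0.77 and Gimap6 by 0.75 on the log2 scale, with adjusted p of 3.5e-06 and 1.6e-06, and Gimap8 and Gimap1 by 0.51 and 0.30. Gimap3 and Gimap5 did not pass, with log2 fold changes of -0.32 (adjusted p = 0.051) and -0.13. Gimap7 was at 160, 221 and 246 CPM in PD1+ and 208, 153 and 182 CPM in PD1- CD4 T cells. It was lower with PD1 in replicate 1 and higher in replicates 2 and 3, for a log2 fold change of 0.05 (adjusted p = 0.86). Without replicate 1 this became 0.30 with an adjusted p of 0.00049, so that 1 library decides whether Gimap7 is called in CD4 T cells. The summed Treg markers, with Foxp3 at 0 by the class rule, also set replicate 1 apart. They were at 601, 248 and 224 CPM in PD1- and 753, 625 and 609 CPM in PD1+ CD4 T cells of replicates 1, 2 and 3. Their part in the Gimap7 values was not tested. Without replicate 3 the number of members called was 3. All genes called numbered 1669 in this comparison, and 180 to 2434 under the 13 alternatives.

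In Treg 3 members fell with PD1, where 0.53% of all genes were called lower and 0.0929% higher. With DESeq2, higher genes made up 25.3% of the calls over all genes, against 14.9%. Gimap4 was at 134, 242 and 253 CPM in PD1+ and 218, 349 and 376 CPM in PD1- Treg. It was lower in 3 of 3 libraries, by 1.56-fold (log2 fold change -0.64, SE 0.10, adjusted p = 0.0025, edgeR quasi-likelihood test), although replicate 1 made the groups overlap. Gimap9 was lower by 0.57 (adjusted p = 0.0035), without overlap of the groups, and Gimap6 by 0.43 (adjusted p = 0.02). Gimap8 had a log2 fold change of -0.43 and an adjusted p of 0.051. Gimap7 was at 222, 222 and 282 CPM in PD1+ and 340, 273 and 326 CPM in PD1- Treg, with a log2 fold change of -0.41 that did not pass (adjusted p = 0.24). The Treg count was 6 members without replicate 1. It was 0 without replicate 2 and 0 without replicate 3, although 7 members had an unadjusted p under 0.05 in both edgeR fits. Among all genes 67 were called in Treg, and 0 to 299 under the 13 alternatives.

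**Figure D4:**
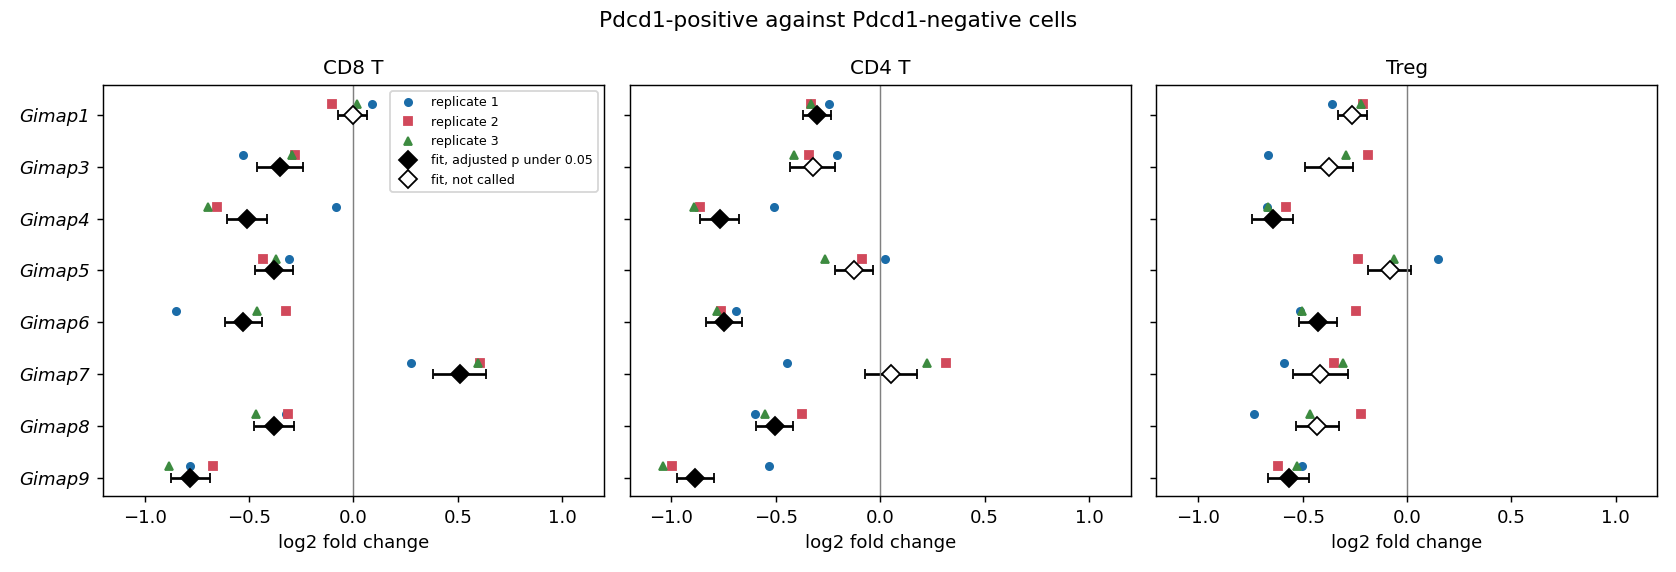
Log2 fold change (linear axis) of each Gimap gene in PD1+ against PD1- cells of the CD8 T, CD4 T and Treg classes. Diamonds are the fitted values with their SE, filled where the adjusted p was under 0.05, and small points are the 3 libraries. Gimap9, Gimap4 and Gimap6 are called lower in all 3 classes, and Gimap7 lies at 0.51 in CD8 T cells, 0.05 in CD4 T cells and -0.41 in Treg.

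The median log2 fold change of the 8 members with PD1 was -0.38 in CD8 T cells, -0.41 in CD4 T cells and -0.42 in Treg, where the median of all genes lay between -0.01 and 0.00. Whether the PD1 difference itself differed between classes was tested by an interaction. Against CD4 T cells 0 members were called for CD8 T cells and 0 for Treg (edgeR quasi-likelihood test, where 0.0558% and 0.483% of all genes were called). At an unadjusted p under 0.05 there were 2 and 3 members, and DESeq2 called 0 in both. Without replicate 1 Gimap6 was called for CD8 T cells, and Gimap6, Gimap7 and Gimap9 for Treg. A further interaction, chosen after these values were seen, set CD8 T cells against Treg. Gimap7 differed by 0.92 on the log2 scale (SE 0.18, adjusted p = 0.028, edgeR quasi-likelihood test), where 0.995% of all genes were called, and no other member was called. It was higher with PD1 in 3 of 3 libraries in CD8 T cells and lower in 3 of 3 in Treg. Without replicate 2 or without replicate 3 the difference was 0.90 and 0.93, with adjusted p of 0.36 and 0.40 (edgeR quasi-likelihood test). With cells thinned to 2000 UMIs and classified again, which left fewer cells, it was 0.86 with an adjusted p of 0.21 in the same test.

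Cells thinned to 2000 UMIs gave the levels by the number of Pdcd1 UMIs, counted after thinning. Gimap7 in CD8 T cells was at 185, 164 and 210 CPM in cells with no Pdcd1 UMI. It was at 329, 321 and 343 CPM in cells with 1 such UMI and at 329, 330 and 381 CPM in cells with 2 or more. All libraries of the last 2 groups lay above those of the first. Gimap9 in CD8 T cells was at 129 ± 26.3, 116 ± 32.3 and 80.8 ± 11.5 CPM in the same groups (SD, n = 3). The means of Gimap4, Gimap5 and Gimap6 also fell at each step. They went from 264 ± 97.3, 137 ± 10.1 and 427 ± 58.2 CPM to 177 ± 30.4, 105 ± 18.1 and 326 ± 133 CPM. Between the first and last groups the library values of Gimap4 and Gimap6 overlapped and those of Gimap5 did not. Gimap4 was at 155, 178 and 171 CPM in replicate 1, and Gimap6 at 429, 476 and 445 CPM in replicate 2. The mean of Gimap1 rose from 223 ± 26.5 to 278 ± 33.0 CPM. These CPM are without the trimmed-mean scaling of the fits. Gimap3 (383 ± 113, 404 ± 121 and 381 ± 98.2 CPM) and Gimap8 (90.5 ± 25.3, 84.8 ± 17.1 and 82.9 ± 17.7 CPM) stayed within the spread of the libraries. So did the sum of the 8 members, at 1840 ± 359, 1923 ± 300 and 1778 ± 270 CPM. In Treg, Gimap7 was at 320 ± 52.6, 299 ± 54.8 and 312 ± 62.6 CPM, within the spread of the libraries. Gimap4 fell there at each step, at 311 ± 67.8, 234 ± 37.6 and 185 ± 50.5 CPM. Gimap9 (147 ± 4.04, 123 ± 10.1 and 144 ± 20.8 CPM) and Gimap6 (426 ± 35.5, 325 ± 89.5 and 415 ± 95.4 CPM) did not. These Treg values rest on few cells. Replicates 1, 2 and 3 held 47, 93 and 148 Treg with 1 Pdcd1 UMI and 21, 83 and 111 with 2 or more.

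Most lymphocytes carried at least 1 Gimap transcript at equal depth. After thinning to 2000 UMIs, 93.2 ± 1.95% of CD4 T cells, 92.4 ± 1.91% of Treg, 90.6 ± 5.17% of CD8 T cells and 72.6 ± 3.64% of B cells had a UMI of some member, against 9.72 ± 10.8% of macrophages (SD, n = 3). Without thinning the shares were 98.8%, 98.3%, 98.7%, 94.1% and 21.7%. After thinning the macrophages had the lowest share, with a Gimap UMI in 4 of 67 cells over the 3 libraries. A CD4 T cell showed a mean of 2.84 different members, a Treg 2.68, a CD8 T cell 2.53 and a B cell 1.31. Gimap7 was seen in 38.2 ± 3.18% of PD1+ CD8 T cells and in 23.7 ± 2.40% of PD1- CD8 T cells, and in every library the PD1+ share was higher. It was seen in 37.2 ± 2.76% of Treg and 5.76 ± 0.798% of B cells, and in 0 of 67 macrophages, where the exact interval reaches 5.36%.

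Over the 18 sums of the 6 T groups in 3 libraries, with each library centred, 5 members varied together. The 10 pairs among Gimap3, Gimap4, Gimap6, Gimap8 and Gimap9 had Pearson r from 0.75 to 0.94, the highest for Gimap9 and Gimap4. Gimap7 had r from -0.36 to 0.08 with the 7 other members, and Gimap5 from -0.46 to 0.37. With these 5, Gimap1 had r from 0.53 for Gimap3 to 0.81 for Gimap4. These are descriptions over sums that share libraries and depth, and the 18 points are not independent.

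**Figure D5:**
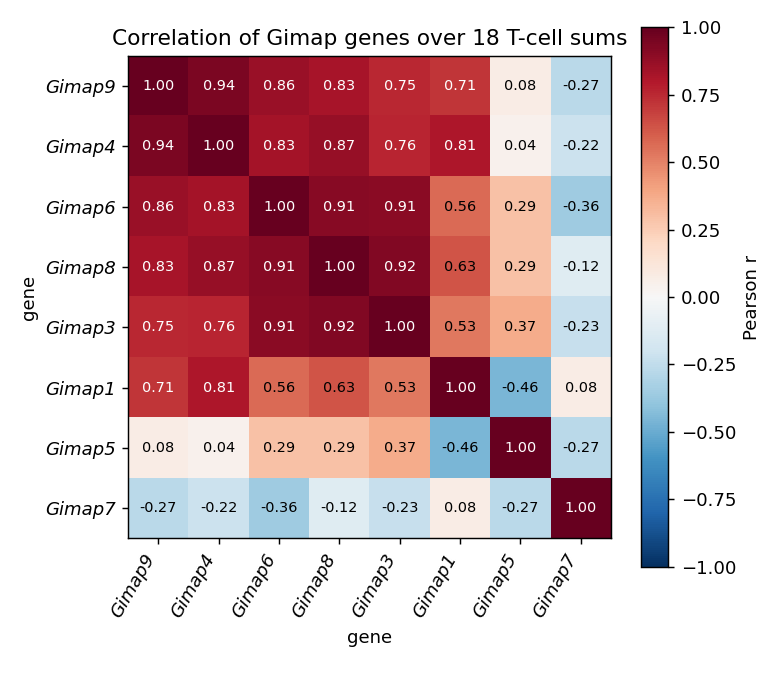
Pearson r between Gimap genes over 18 T-cell sums (log2 CPM, centred on each library), with the value printed in each cell. Gimap3, Gimap4, Gimap6, Gimap8 and Gimap9 form a block of r from 0.75 to 0.94, and the row of Gimap7 runs from -0.36 to 0.08.

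Among all other genes, the 10 whose pattern was most like the mean of the 8 members over these sums were Smchd1 (r = 0.95), Rflnb (0.95), Atp1b3 (0.92), S1pr1 (0.92), Stk38, Pja1, Rabac1, Smad4, Vps37b and Cd53, the last at 0.90. The median r of all 10751 genes was 0.01 and the 99th percentile 0.81. S1pr1, also a member of the quiescence list described next, encodes the receptor by which lymphocytes leave tissues along the lipid S1P, and Smchd1 a chromatin protein of gene silencing. For Gimap7 alone the highest r was with Ccr2 (0.86), a chemokine receptor gene, which was looked up after its values were seen.

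Genes of quiescence and recirculation moved with PD1 beside the Gimap genes. Of 10 such genes, 9 fell in PD1+ CD8 T cells (7.57% of all genes were called lower). In CD4 T cells 9 fell (8% of all genes) and in Treg 4 fell (0.53% of all genes). The median log2 fold change of the list was -1.12, -1.25 and -0.38, against a median of all genes between -0.01 and 0.00. Klf2, a transcription factor of resting T cells, fell by 1.46, 1.53 and 0.66 in CD8 T cells, CD4 T cells and Treg, with adjusted p of 5.5e-08, 2.1e-08 and 0.006 (edgeR quasi-likelihood test). Foxo1 was the member of this list that passed in none of the 3 classes. The largest Gimap fall, -0.89 for Gimap9 in CD4 T cells, was smaller than the median of this list in CD8 and CD4 T cells. Of 10 genes of activation and checkpoint receptors, 7 rose in CD8 T cells (6.13% of all genes were called higher) and 6 in CD4 T cells (7.51% of all genes). In Treg 0 rose with edgeR, 0 had an unadjusted p under 0.05 and 0 passed with DESeq2. The medians of this list were 1.02, 0.91 and 0.27 in CD8 T cells, CD4 T cells and Treg. Tnfrsf9, a costimulatory receptor gene, rose by 1.56 and 1.65, and Cd44, a memory marker, by 0.70 and 0.68.

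Of 10 genes whose proteins belong to families linked to GIMAP function, 1 rose and 3 fell in PD1+ CD8 T cells, and 2 rose and 2 fell in CD4 T cells. Over all genes 6.13% were called higher and 7.57% lower in CD8 T cells, and 7.51% and 8% in CD4 T cells, so that 1 of 10 is near the background. In Treg 0 passed with edgeR, 2 had an unadjusted p under 0.05 and 0 passed with DESeq2. Bcl2l1, which encodes the survival protein BCL-XL, rose by 0.72 in CD8 T cells (adjusted p = 0.021) and by 1.27 in CD4 T cells (adjusted p = 3.8e-05, edgeR quasi-likelihood test). Bcl2l11, which encodes the death protein BIM, fell by 0.71 and 0.76, and Mcl1 by 0.31 and 0.39. Bcl2 fell by 0.67 in CD8 T cells. The medians of this list were 0.09, 0.06 and -0.05 in the 3 classes. Gsk3b and the autophagy genes Gabarapl2, Gabarap and Map1lc3b passed in none of the 3 PD1 comparisons.

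Genes beside the Gimap cluster were looked at for comparison. Of 30 genes within 500 kb in the count tables, 13 were tested in T cells. With PD1, Tra2a fell in CD8 T cells, and Igf2bp3 fell in CD4 T cells, where DESeq2 did not call it. One gene of 13 is near the 7.57% and 8% of all genes called lower in these comparisons. In Treg 0 passed with edgeR, 0 had an unadjusted p under 0.05 and 0 passed with DESeq2. Their medians were -0.23, 0.07 and 0.16 in CD8 T cells, CD4 T cells and Treg. Against B cells 6 of 14 tested neighbours were higher in T cells, where 29.4% of all genes were, and the others did not pass. Tmem176a, Tmem176b and Gpnmb, myeloid genes of this region, were higher in macrophages than in T cells, by 5.81 to 7.35 on the log2 scale. Gimap1os, a transcript antisense to Gimap1, was at 11.9, 12.9 and 16.3 CPM in CD4 T cells and 0.85, 1.56 and 1.33 CPM in B cells. It was called higher in T cells against B cells (adjusted p = 1.8e-09, edgeR quasi-likelihood test) and in none of the PD1 comparisons.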

How the data were processed

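Per the labels, live CD45+ islet cells of wild-type female NOD mice were sorted and sequenced with 10x Genomics 3′ v3 chemistry. The authors deposited raw UMI counts per gene and cell for each of 3 libraries, made with Cell Ranger 6.0.1 on mm10 per the submitters' processing notes. No normalization or annotation of cells is in these count files.

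Cells were assigned to classes by UMI rules in Python 3.11.15 (numpy 2.4.6, scipy 1.17.1). The counts of each class and library were summed, with at least 10 cells per sum. CPM scale each sum to the same total of UMIs. Doublets were not called. T cells with Cd79a or C1q UMIs were left out as an alternative instead. The 18 sums of the T groups and the 15 sums of the 5 classes were fitted with edgeR 4.0.16 (quasi-likelihood, TMM scaling, filterByExpr, library as a block, R 4.3.3) over 10759 and 12090 genes. Genes used by the class rules were fitted but not tested. An adjusted p (Benjamini-Hochberg) under 0.05 was a call. The SE is the log2 fold change over the square root of F. DESeq2 1.42.0 was an alternative. The sums of 1 library come from the same pool of mice, and their deviations from the class means correlated (mean r 0.446 within libraries), so the library block stayed in. The mean r between libraries (-0.198) adds nothing to this, since centring on class means over 3 libraries pushes it below 0. Libraries are the replicates (n = 3). With the library block, p-values measure how far differences between classes varied from library to library, pooled over the groups of the fit. The spread of overall level between pools of mice is taken out by the block.

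Besides the 8 members, the text names genes within 500 kb of the cluster, the 10 genes most correlated with the mean of the members, and 3 lists of 10 genes (quiescence and recirculation, activation and checkpoint, and Gimap-linked proteins). The members, classes and lists were chosen with earlier results of these data known, and nothing here is independent support for those. Shares of cells with a UMI were taken after thinning each cell to 2000 UMIs. This left out 0.0625% of CD8 T cells, 1.24% of Treg and 1.47% of macrophages. No column was left without a sample. Promoter windows are from RefSeq on GRCm38.p6 and gene positions from GENCODE M21. The figures were drawn with matplotlib 3.10.9. One gene of the quiescence list is not reported here by name.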

Additional observations from a re-analysis of the deposited data

Results flagged for a closer look

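Gimap7 differed in direction with PD1 between 2 T classes, although only the CD8 change passed its own test. In CD8 T cells it was higher in PD1+ cells in 3 of 3 libraries (log2 fold change 0.51), and in Treg it was lower in 3 of 3 libraries (-0.41, adjusted p = 0.24, which did not pass). The difference between the classes was tested after these values were seen and came to 0.92 on the log2 scale (SE 0.18, adjusted p = 0.028 with edgeR's quasi-likelihood test, 0.0004 with DESeq2), over a range of adjusted p from 2.4e-08 to 0.70 in the alternatives. With cells thinned to 2000 UMIs and classified again, the Treg change was -0.25 (adjusted p = 0.74, edgeR quasi-likelihood test). By number of Pdcd1 UMIs in thinned cells, Gimap7 in Treg stayed within the spread of the libraries, in groups of as few as 21 cells per library.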

How the results depend on the processing

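Under 13 alternatives (12 for the comparisons with B cells and macrophages), 1120 values of the members were computed again. None reversed a call, 84 lost it and 25 gained one. The number of members called moved most without the library block, that is, without the pairing of sums by replicate. It went from 7 to 0 for PD1+ against PD1- CD8 T cells, from 5 to 1 in CD4 T cells, from 3 to 0 in Treg, from 5 to 1 for CD8 against CD4 T cells, from 4 to 0 for Treg against CD4 T cells and from 1 to 0 for the PD1 difference of CD8 T cells against Treg. At an unadjusted p under 0.05 these zeros stood at 2, 2, 2 and 1 members in edgeR. Scaling by total UMIs alone called 4 members for PD1 in CD8 T cells and 2 for Treg against CD4 T cells. With cells thinned to 2000 UMIs and classified again, the counts were 2 for PD1 in CD8 T cells, 0 for PD1 in Treg, 2 for Treg against CD4 T cells and 0 for the PD1 difference of CD8 T cells against Treg (3 and 1 members at an unadjusted p under 0.05 for the zeros, edgeR). The study's cell limits gave 2 for Treg against CD4 T cells and 4 for B cells against macrophages. For PD1 in Treg, no filter on low counts gave 6 and DESeq2 gave 5. The causes were not tested. Scaling by total UMIs moved the median of all genes by 0.18 in the CD8 and CD4 PD1 comparisons, and changed the calls higher for the PD1 difference of CD8 T cells against Treg from 42.1% to 66.1% of all calls. DESeq2 gave 53.5% there. For the PD1 difference of Treg against that of CD4 T cells it gave 55.3% in place of 67.3%, and for the PD1 difference of CD8 against that of CD4 T cells 29.4% in place of 16.7%, where total-UMI scaling left 1 call, lower. Leaving out each library in turn gave 2 to 7 members for PD1 in CD8 T cells (2 without replicate 2 or 3), 3 to 7 in CD4 T cells (3 without replicate 3) and 0 to 6 in Treg. It gave 3 to 5 for CD8 against CD4 T cells, 1 to 6 for Treg against CD4 T cells (2 without replicate 2, 1 without replicate 3), 0 to 1 and 0 to 3 for the interactions of CD8 T cells and Treg with CD4 T cells and 0 to 1 for CD8 T cells against Treg. The 8 members called against B cells and macrophages stayed at 8 in each of these. The number of all genes called ranged over the alternatives from 189 to 2133 for PD1 in CD8 T cells, 180 to 2434 in CD4 T cells, 0 to 299 in Treg, 375 to 1928 for CD8 against CD4 T cells, 193 to 1653 for Treg against CD4 T cells, 3951 to 7367 for T cells against B cells, 1415 to 4530 for T cells against macrophages and 1371 to 4610 for B cells against macrophages. For the interactions it ranged from 0 to 181, 0 to 487 and 0 to 525. The number of cells limits the macrophage values, since 68 cells hold 17 Gimap UMIs. Macrophage sums of under 10 cells left 14 sums in the thinned fit and 13 under the study's limits, and the split at 2 Pdcd1 UMIs was run for the T fit only.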
